A study of Homo sapiens with 4 samples.

Results

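The genes described here are 10 feedback inhibitors of ERK signalling: the phosphatases DUSP4, DUSP5, DUSP6 and DUSP9, the Sprouty genes SPRY1, SPRY2 and SPRY4, and the SPRED genes SPRED1, SPRED2 and SPRED3. They were chosen by name, as the probe sets annotated to exactly 1 of these symbols, and all 10 were found among the 18244 genes with such a probe set. They had 25 probe sets of the 49293 that were no control. A pair of SPRY1 probe sets held identical values on every array and was counted once, which left 24 distinct probe sets.

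Expression was measured on 4 arrays of Kelly cells, an established human neuroblastoma line, in a derivative resistant to the ALK inhibitor TAE684 and grown in 1 µM of it. Cells of both groups were infected with virus for 24 h, with polybrene at 8 µg/ml, and selected in puromycin for 48 h. Both groups thus carried a hairpin and both were under drug. The shBORIS group (2 arrays) carried a hairpin against BORIS, the protein of CTCFL and a germ-line paralog of the genome organiser CTCF, and the shLUC control group (2 arrays) a hairpin against luciferase. The labels call the 2 arrays of a group biological duplicates and name 1 hairpin against BORIS, so effects of that hairpin on other genes cannot be told apart from effects of less BORIS.

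Receptor kinases such as ALK, RET and the FGF receptors switch on RAS, which activates the kinase chain RAF, MEK and ERK. ERK induces its own brakes. DUSP phosphatases remove the activating phosphates from ERK and related kinases, while Sprouty and SPRED proteins act higher up, between receptor and RAF, with SPRED proteins bringing the RAS inhibitor neurofibromin to the membrane. Transcripts of DUSP6, SPRY2, SPRY4 and others are therefore widely read as a gauge of ERK activity, and ALK drives this pathway in neuroblastoma.

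The promoters of 3 members are shown because of where these genes stood in the comparison or what they encode: SPRY2 was higher on both scales used below, DUSP9 lower on both, and DUSP6 encodes a phosphatase specific for ERK. DUSP5, the member with the lowest difference, and DUSP4 had no entry. Each sequence is the 250 bases before 1 start of the gene from RefSeq (GRCh38.p14), 5′ to 3′ on the gene's strand, at chr13:80341127-80341376, minus strand; chr12:89352502-89352751, minus strand; and chrX:153642191-153642440, plus strand. Capitals mark a match to CCGGAA, a core of the sites bound by ETS factors, some of which ERK activates, or to its reverse complement.

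SPRY2: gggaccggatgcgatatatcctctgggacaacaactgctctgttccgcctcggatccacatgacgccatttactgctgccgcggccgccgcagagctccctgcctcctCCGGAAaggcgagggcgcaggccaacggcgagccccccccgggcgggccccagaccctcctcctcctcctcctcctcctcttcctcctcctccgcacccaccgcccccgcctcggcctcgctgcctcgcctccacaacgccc

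DUSP6: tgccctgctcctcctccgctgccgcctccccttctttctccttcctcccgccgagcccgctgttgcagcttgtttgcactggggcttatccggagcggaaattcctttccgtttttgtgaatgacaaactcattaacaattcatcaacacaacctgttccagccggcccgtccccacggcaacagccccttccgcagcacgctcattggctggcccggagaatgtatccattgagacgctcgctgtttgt

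DUSP9: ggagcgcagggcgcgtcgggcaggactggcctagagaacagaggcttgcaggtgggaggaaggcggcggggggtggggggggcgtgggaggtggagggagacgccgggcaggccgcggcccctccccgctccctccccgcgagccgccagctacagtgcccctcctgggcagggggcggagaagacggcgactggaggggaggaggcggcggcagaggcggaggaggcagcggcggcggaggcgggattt

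In the table of promoters 8 of the 10 members had an entry, with 14 windows in all. The ETS core, read on both strands, lay in 2 of these windows, 1 each of SPRY1 and SPRY2, against 14.5% of all 35116 windows of this length. In SPRY2 it lay 142 to 137 bases before the start; SPRY2 has 3 windows in the table, and the one printed is the only one of them with the match. DUSP9 has 2 windows, neither with a match. The AP-1 site TGANTCA lay in 1 window, of SPRED3, 60 to 54 bases before the start (6.57% of all windows). The palindromic cyclic AMP response element (1.65% of all windows), the CArG box of serum response factor (1.16%) and the core of the CTCF motif (2.02%) had no match in the 14 windows. The matches found lay in different genes, so none overlapped another. A match to such letters is a description and not a bound site, and no match, as in DUSP6 and DUSP9, says only that the letters are not in this window.

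Values are deposited probe set intensities on a linear scale, and differences are shBORIS minus shLUC of log2(intensity + 16), which understates the change of dim genes. On the deposited scale the arrays were not level. The median intensity of probe sets that are no control was 80.8 and 84.5 on the shBORIS arrays against 64.4 and 60.4 on the shLUC arrays, while the median of the ERCC spike-in probe sets lay between 24.4 and 25.8 on all 4. The median gene was 0.48 higher with shBORIS on the log2 scale. The change of each member's brightest probe set is therefore given on both scales, as deposited and centred. Centring took off each value the array's own median of the 10946 genes in the test. Several other changes are given centred only. A centred difference compares a gene with the median gene. Centred differences also moved with brightness: their median was -0.46 in decile 1 of the probe sets ranked by mean intensity, the dimmest, and 0.11 in decile 9. In bulk RNA, fewer cells of a type and less RNA per cell cannot be told apart. CTCFL, the target of the hairpin, read 701 and 737 with shBORIS and 3563 and 3376 with shLUC.

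The cells carried the markers of sympathetic neuroblastoma: PHOX2A, HAND2, GATA3, ISL1, TH, DBH and MYCN all passed the filter, 7 of the 9 markers listed, and the other two were not analysed here. Centred, 6 of the 7 were called lower and DBH higher, against 28.9% and 30.2% of all genes tested, with a median of -0.26. As deposited 3 were called higher and 0 lower, against 77.2% and 4.60%. Of 15 measured markers of Schwann cells, fibroblasts, endothelial and immune cells, GFAP, COL1A1, PDGFRB, VWF and CD68 passed the filter. The summed intensity of the 5 fibroblast markers was 831 and 916 on the shBORIS arrays and 1023 to 1074 on the shLUC arrays, while DCN and COL3A1 lay at group means of 23.0 to 27.9. COL1A1 carried the lower sum: it read 451 and 515 with shBORIS and 729 and 779 with shLUC, -0.63 as deposited and -1.11 centred. As deposited, PDGFRB (group means 276 and 202), LUM (59.8 and 45.6), COL3A1 and DCN had higher means with shBORIS. Centred, each of them was lower on both shBORIS arrays, as were 60.2% of all probe sets. The summed immune markers read 149 to 162 with shBORIS and 145 to 163 with shLUC, with PTPRC at 11.3 and 14.0. The part of these markers in the changes below was not tested.

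The inhibitors did not move as a block. As deposited, SPRY2, DUSP4 and SPRED2 were called higher in shBORIS cells and DUSP5 and DUSP9 lower, 3 and 2 of the 9 genes tested, where 77.2% of all genes were called higher and 4.60% lower. Centred, 1 of 9 rose (SPRY2) and 6 fell (DUSP5, DUSP6, DUSP9, SPRY1, SPRY4 and SPRED1), where 30.2% of all genes rose and 28.9% fell. With arrays centred on the median of all probe sets instead, 3 rose (SPRY2, DUSP4 and SPRED2) and 4 fell (DUSP5, DUSP6, DUSP9 and SPRY4), while 4996 of the 10946 genes rose and 1908 fell. The median of the 9 was 0.16 as deposited and -0.31 centred, beside 0.48 and 3e-04 for all genes tested. Calls are from limma at an adjusted p of 0.05 over all genes tested, each gene taken at its brightest probe set. The range from DUSP5 to SPRY2 was 1.02 on the log2 scale, and it is the same on both scales. SPRED3 lay just under the filter on dim genes at a mean intensity of 60.4, against 61.4 for the filter and 63.0 for SPRY4, the dimmest member inside it.

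**Figure D1:**
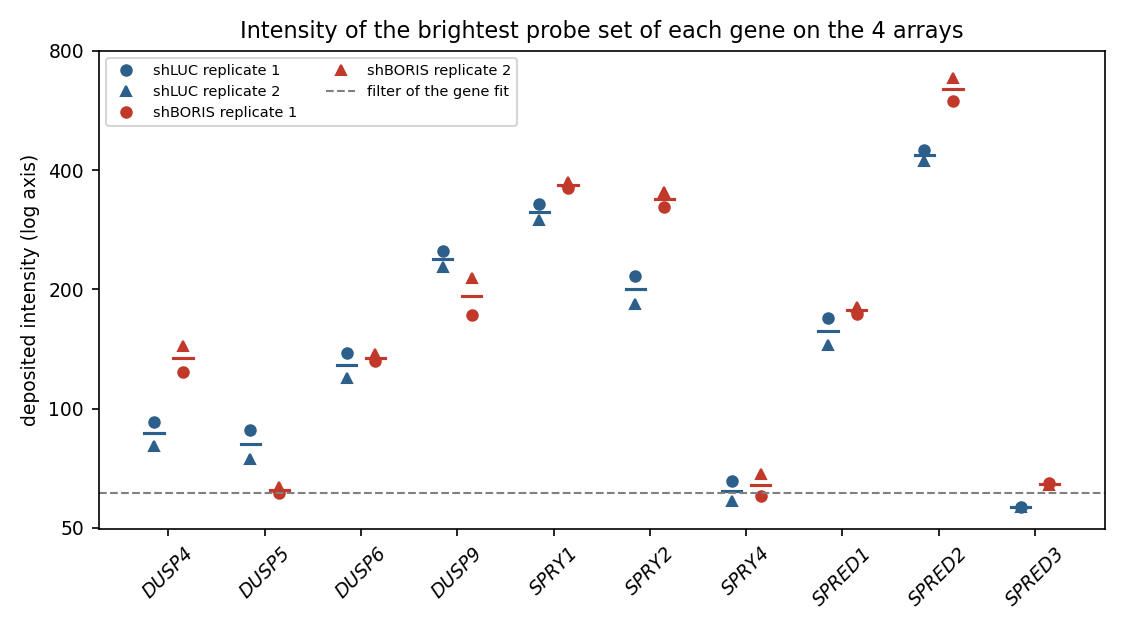
Intensity of the brightest probe set of each of the 10 genes on the 4 arrays, on a log axis, with replicates 1 and 2 as circles and triangles, a short line at each group mean and the filter of 61.4 as a dashed line. DUSP4, SPRY1, SPRY2, SPRED1, SPRED2 and SPRED3 are brighter on both shBORIS arrays, as were 67.2% of all probe sets. DUSP5 and DUSP9 are dimmer on both (7.54% of all probe sets), and the arrays of DUSP6 and SPRY4 overlap.

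Among the phosphatases, DUSP9 was lower in shBORIS cells on both scales. DUSP9 dephosphorylates ERK in the cytoplasm. Its brightest probe set (11731750_s_at) read 172 and 214 with shBORIS and 249.6 and 227.5 with shLUC, 193 ± 29.5 against 239 ± 15.6 (SD, n = 2). Both shBORIS arrays lay below both shLUC arrays, 1.22-fold lower as deposited (log2 -0.29, SE 0.11; limma adjusted p = 0.00932) and 1.70-fold lower when centred (log2 -0.77, SE 0.08; limma adjusted p = 2.3e-05). The other DUSP9 probe set, whose name carries the x of probes that may bind other sequences, read 162 and 167 against 214 and 214 and had a centred difference of -0.83 (SE 0.07). The deposited difference was not past the threshold without shBORIS replicate 1 (log2 -0.15; adjusted p = 0.319) or without shLUC replicate 1 (log2 -0.23; adjusted p = 0.0991).

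DUSP5, a nuclear phosphatase that binds ERK, was also lower on both scales. Its only probe set (11717863_a_at) read 61.2 and 63.5 with shBORIS and 88.1 and 74.5 with shLUC, and the groups did not overlap. The difference was -0.31 as deposited (SE 0.11; limma adjusted p = 0.00857) and -0.79 centred (SE 0.09; limma adjusted p = 3.86e-05). All probe sets of its decile by mean intensity had a median centred difference of -0.19. The deposited call was lost without shBORIS replicate 1 (log2 -0.29; adjusted p = 0.0521) and without shLUC replicate 1 (log2 -0.21; adjusted p = 0.148), and the centred call held without each array in turn (log2 -0.83 to -0.74).

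DUSP6, a cytoplasmic phosphatase that binds ERK itself, overlapped between the groups as deposited and fell on the centred scale. Its brightest probe set (11744618_a_at) read 132 and 137 with shBORIS and 138 and 120 with shLUC, so the groups overlapped, with a difference of 0.06 as deposited (limma adjusted p = 0.634). Centred, it fell by 0.42 on the log2 scale (SE 0.07; limma adjusted p = 6.84e-04). The other three probe sets gave -0.48, -0.64 and -0.64, each past the threshold in the fit of all probe sets, while the medians of their deciles were -0.07 and -0.0046. The 2 dimmest of the 4 read 103 and 102 with shBORIS against 133 and 103 with shLUC, and 91.8 and 92.7 against 121 and 91.5. On both, shLUC replicate 1 was the high array and shLUC replicate 2 stood level with the shBORIS arrays.

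DUSP4, a nuclear phosphatase for ERK and the stress kinases, was higher in shBORIS cells as deposited and not past the threshold centred. Its only probe set (11744162_a_at) read 124 and 144 with shBORIS and 92.4 and 80.7 with shLUC, with no overlap. This was 1.46-fold higher as deposited (log2 0.55, SE 0.11; limma adjusted p = 1.23e-06) and 0.07 centred (SE 0.08; limma adjusted p = 0.465). Centred on the median of all probe sets in place of the genes tested, it was 0.22 higher (adjusted p = 0.0366).

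The Sprouty genes differed from each other. SPRY2, an inhibitor of signalling from FGF and other receptors to RAS, had the highest difference of the 9 members tested. Its only probe set (11753988_a_at) read 323 and 351 with shBORIS and 216 and 183 with shLUC, means of 337 ± 19.9 and 200 ± 23.5 (SD, n = 2). The groups did not overlap. The difference was 1.64-fold as deposited (log2 0.71, SE 0.11, limma adjusted p = 2.45e-10) and 1.18-fold centred (log2 0.24, SE 0.07, limma adjusted p = 0.0108). All probe sets of its decile had a median difference of 0.53 as deposited and 0.05 centred. The centred 75th percentile of that decile was 0.27, above the value of SPRY2. The centred call was lost without shLUC replicate 2 (log2 0.18; adjusted p = 0.0665) and with the filter at the 60th percentile (log2 0.17; adjusted p = 0.051).

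SPRY1, its close relative, had intensities of 361 and 373 with shBORIS and 329 and 299 with shLUC at its brightest probe set (11717651_a_at). Both shBORIS arrays were brighter, by 0.22 as deposited (SE 0.11; limma adjusted p = 0.0632), which did not pass, and by less than the median gene, so that the centred difference was -0.26 (SE 0.06; limma adjusted p = 0.00357). Its second distinct probe set gave -0.31. The call of the brightest was lost with arrays centred on all probe sets (log2 -0.12; adjusted p = 0.158), and the unfiltered fit gave log2 -0.15 (adjusted p = 0.0646).

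SPRY4, which also acts between receptor and RAS, lay near the filter. Its brightest probe set (11754344_s_at) read 60.01 and 68.5 with shBORIS and 65.5 and 58.6 with shLUC, overlapping, a difference of 0.04 as deposited (limma adjusted p = 0.753) and -0.44 centred (SE 0.09; limma adjusted p = 0.00156). All probe sets of its decile had a median centred difference of -0.19. The other two SPRY4 probe sets lay between 18.3 and 26.4 on all arrays. Their centred differences of -0.43 and -0.55 stand beside a median of -0.42 for their decile, and after quantile normalization they were 0.02 and -0.08.

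SPRED2, an inhibitor of RAF activation, was higher in shBORIS cells as deposited and not past the threshold centred. Its brightest probe set (11717656_a_at) read 599 and 684 with shBORIS and 450.3 and 422 with shLUC. The groups did not overlap, and it was 1.45-fold higher as deposited (log2 0.54, SE 0.11; limma adjusted p = 4.96e-06) and 1.04-fold centred (log2 0.06, SE 0.06; limma adjusted p = 0.396). Its other probe sets gave centred differences of 0.04 and -0.14, neither past the threshold. Centred on all probe sets the gene was 0.21 higher (adjusted p = 0.0205), and in the unfiltered fit 0.18 higher (adjusted p = 0.0283).

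SPRED1, the gene mutated in Legius syndrome, had 5 probe sets. Once each array was set to its median gene, all 5 were lower on both shBORIS arrays, as were 60.2% of all probe sets. The brightest (11734826_s_at) read 173 and 181 with shBORIS and 169 and 144 with shLUC, 0.16 as deposited (limma adjusted p = 0.145) and -0.31 centred (SE 0.07; limma adjusted p = 0.0034). The next brightest pair had the same sign as deposited but passed the threshold, reading 0.34 each (limma adjusted p = 0.00465 and 0.00467), and read -0.14 each centred, not past the threshold. The last pair read -0.32 and -0.20 centred, the first of which passed. As the mean of its probe sets, SPRED1 was 0.26 higher as deposited (adjusted p = 0.00464) and -0.18 centred (adjusted p = 0.0111), and the centred call of its brightest probe set was lost on centring to all probe sets (log2 -0.17; adjusted p = 0.068).

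SPRED3, the third gene of the SPRED family, lay under the filter. Its brighter probe set (11735564_at) read 64.9 and 64.2 with shBORIS and 56.3 and 56.4 with shLUC, higher on both shBORIS arrays but not past the threshold as deposited (log2 0.16; limma adjusted p = 0.24 over all probe sets). Centred, it read -0.32 (SE 0.10; adjusted p = 0.0114), beside -0.19 for its decile and -0.10 after quantile normalization (adjusted p = 0.481). It did not pass without shBORIS replicate 2 (log2 -0.27; adjusted p = 0.0613) or without shLUC replicate 2 (log2 -0.27; adjusted p = 0.0841). The dimmer one read between 23.8 and 31.4 on the 4 arrays. Its difference was -0.07 as deposited (limma adjusted p = 0.667) and -0.54 centred (limma adjusted p = 0.00148), beside -0.35 for its decile.

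Over the 24 distinct probe sets, of which 20 were at or above the intensity of the filter, 8 were called higher and 3 lower as deposited, against 51.8% and 3.22% of all probe sets. Centred, 1 was called higher and 16 lower, against 16.5% and 46.1%. Both shBORIS arrays lay above both shLUC arrays for 12 probe sets as deposited and for 2 centred, against 67.2% and 22.6% of all probe sets. They lay below for 4 and 20, against 7.54% and 60.2%. The median difference of the 24 was 0.16 as deposited and -0.32 centred, against 0.26 and -0.21 for all probe sets. Of the 24, 20 lay below the median of their own decile and 4 above it.

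**Figure D2:**
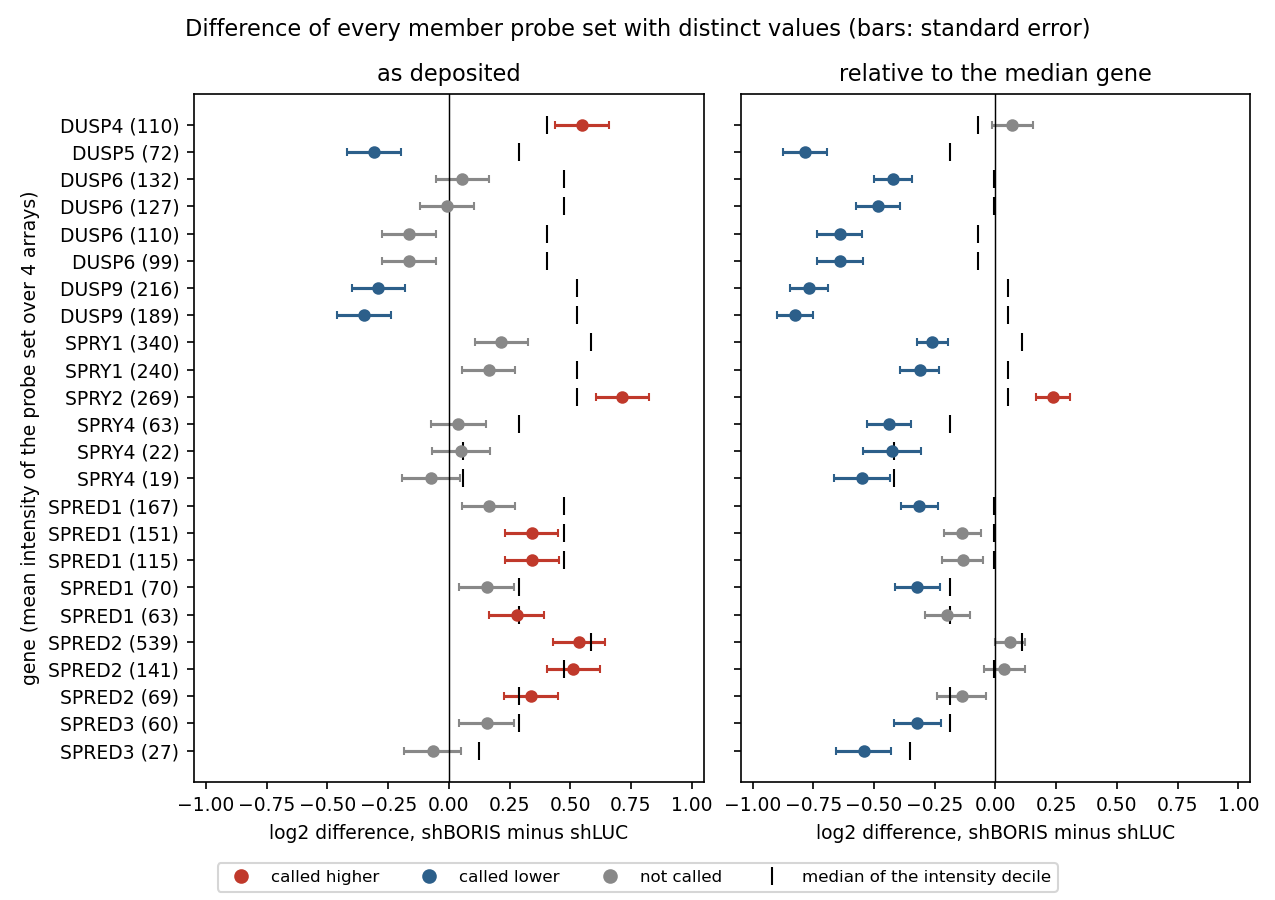
Log2 difference, shBORIS minus shLUC, of the 24 distinct probe sets as deposited (left) and centred on the median gene (right), with standard errors, labelled by gene and mean intensity. Black ticks give the median of all probe sets of the same decile by mean intensity. Of the 24, 20 lie left of their ticks, among them all of DUSP5, DUSP6 and DUSP9, and SPRY2 lies to the right. The dim SPRY4 probe sets, at -0.43 and -0.55 centred, have ticks at -0.42.

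The ratio of a pair of members on the same array does not depend on the value taken off each array. Where the genes of a pair differ in brightness, as SPRY2 and SPRY4 do, the ratio still carries the trend with brightness given above. That trend was not taken off. In each of the 10 pairs within a family, chosen after the values were seen, the log2 ratio was set side by side across the 4 arrays. DUSP4 over DUSP5 was 0.86 and 1.01 with shBORIS and 0.06 and 0.09 with shLUC, a difference of 0.86 beside a pooled SD of 0.08. The ratio of DUSP4 to DUSP9 was higher by 0.84 with shBORIS, and that of DUSP4 to DUSP6 by 0.49, both without overlap. DUSP5 over DUSP9 differed by -0.02 with a pooled SD of 0.13, and its groups overlapped.

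Among the Sprouty genes SPRY2 over SPRY4 was higher by 0.68 with shBORIS. SPRY1 over SPRY2 differed by -0.50, with 0.57 and 0.66 on the shLUC arrays and 0.15 and 0.08 on the shBORIS arrays. SPRED1 over SPRED2 differed by -0.37 (pooled SD 0.09). In 9 of the 10 pairs the groups did not overlap, and each of these had an exact two-sided permutation p of 0.333, the smallest that 2 arrays against 2 can give (0.370 after Benjamini-Hochberg adjustment over the 10 pairs). This permutation test cannot reach 0.05 with 2 arrays against 2. The share of pairs without overlap among other genes was not computed, so the 9 are not read as particular to the members.

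**Figure D3:**
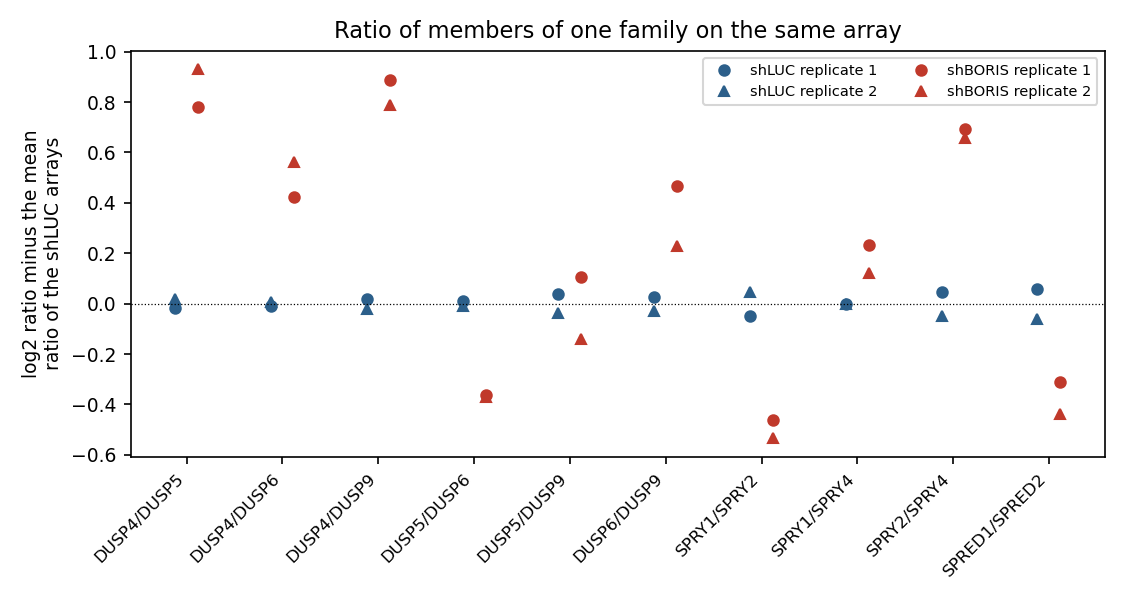
Log2 ratio of 2 members of one family on the same array, less the mean of the shLUC arrays, for 10 pairs; red symbols are shBORIS and blue shLUC arrays, circles replicate 1 and triangles replicate 2. The ratios of DUSP4 to the other phosphatases and of SPRY2 to SPRY4 are higher on both shBORIS arrays, that of SPRY1 to SPRY2 is lower, and the DUSP5 to DUSP9 ratio overlapped.

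Of 6 other MAP kinase phosphatases listed, 5 were tested, and centred 0 rose and 3 fell in limma, with 0 higher at an unadjusted p of 0.05. Their median was -0.41 centred and 0.07 as deposited, where 2 were higher and 0 lower (0 lower unadjusted). Over all genes tested, 30.2% rose and 28.9% fell centred, and 77.2% were higher and 4.60% lower as deposited. DUSP8, which acts on JNK and p38, fell by 0.64, DUSP10, with the same substrates, fell by 0.56, and DUSP1, an immediate early phosphatase, fell by 0.41; DUSP16 read -0.04 (adjusted p = 0.6). As deposited DUSP8, DUSP10 and DUSP1 read -0.16, -0.08 and 0.07, none past the threshold. Changes of pathway genes here and below are centred log2 differences unless given as deposited.

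Of 14 genes induced by ERK, 11 were tested, and 5 rose and 5 fell on the centred scale, with -0.13 as their median. As deposited 8 were higher and 1 lower, against 77.2% and 4.60% of all genes. Centred, the shares over all genes were 30.2% and 28.9%. EGR1, an immediate early factor, had intensities of 232 and 236 with shBORIS and 40.9 and 41.0 with shLUC and rose by 1.66. CCND1, the cyclin of the G1 phase, rose by 0.95. The receptor EPHA2 fell by 0.87, and the ETS factor ETV5, often read beside DUSP6 and SPRY4, fell by 0.39 (0.08 as deposited; adjusted p = 0.477).

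Of 20 genes of the RAS-ERK cascade, 13 were tested. Centred, 5 rose and 4 fell, shares near the 30.2% and 28.9% of all genes, and the median was -0.03. As deposited 10 were higher and 0 lower, against 77.2% and 4.60% of all genes. The RAS exchange factors SOS1 and SOS2 rose by 0.70 and 0.60, while the ERK gene MAPK3 fell by 0.53 and the MEK gene MAP2K1 by 0.37 (as deposited -0.06 and 0.10, neither past the threshold). Of 12 other brakes, 7 were tested. Centred, 3 rose and 2 fell, and the median was 0.12, while as deposited 5 were higher and 0 lower. The EGF receptor inhibitor ERRFI1 fell by 0.66 and the ubiquitin ligase CBL by 0.52 (as deposited -0.18 and -0.05, neither past the threshold). CBLB, a relative of CBL, rose by 0.37 and the RAF inhibitor PEBP1 by 0.13. The call of CBLB was lost without shLUC replicate 2 (log2 0.20; adjusted p = 0.0700), and that of PEBP1 when either shBORIS array was left out (log2 0.13, adjusted p = 0.145, and 0.12, adjusted p = 0.182).

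At the receptors, 16 were listed and 11 tested. Centred, 2 rose and 7 fell, and the median was -0.30. As deposited 4 were higher and 2 lower. RET rose by 0.85 and ALK, which TAE684 inhibits, by 0.96, while IGF1R fell by 0.92 and FGFR4 by 0.76, and all 4 had the same sign as deposited. Over the 5 lists together, centred, 15 of 47 genes tested rose and 21 fell, against 30.2% and 28.9% of all genes; centred on all probe sets, 16 rose and 14 fell. As deposited 29 of the 47 were higher, a smaller share than the 77.2% of all genes, and 3 were lower, against 4.60%. Some sizes rest on the brightest probe set: as the mean of a gene's probe sets, EGR1 read 1.049, SOS2 0.31, CBLB 0.19, IGF1R -0.53, DUSP10 -0.33 and DUSP1 -0.26 centred, all still past the threshold. Lists include several genes of the same families as the members, and no list was tested as a set.

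**Figure D4:**
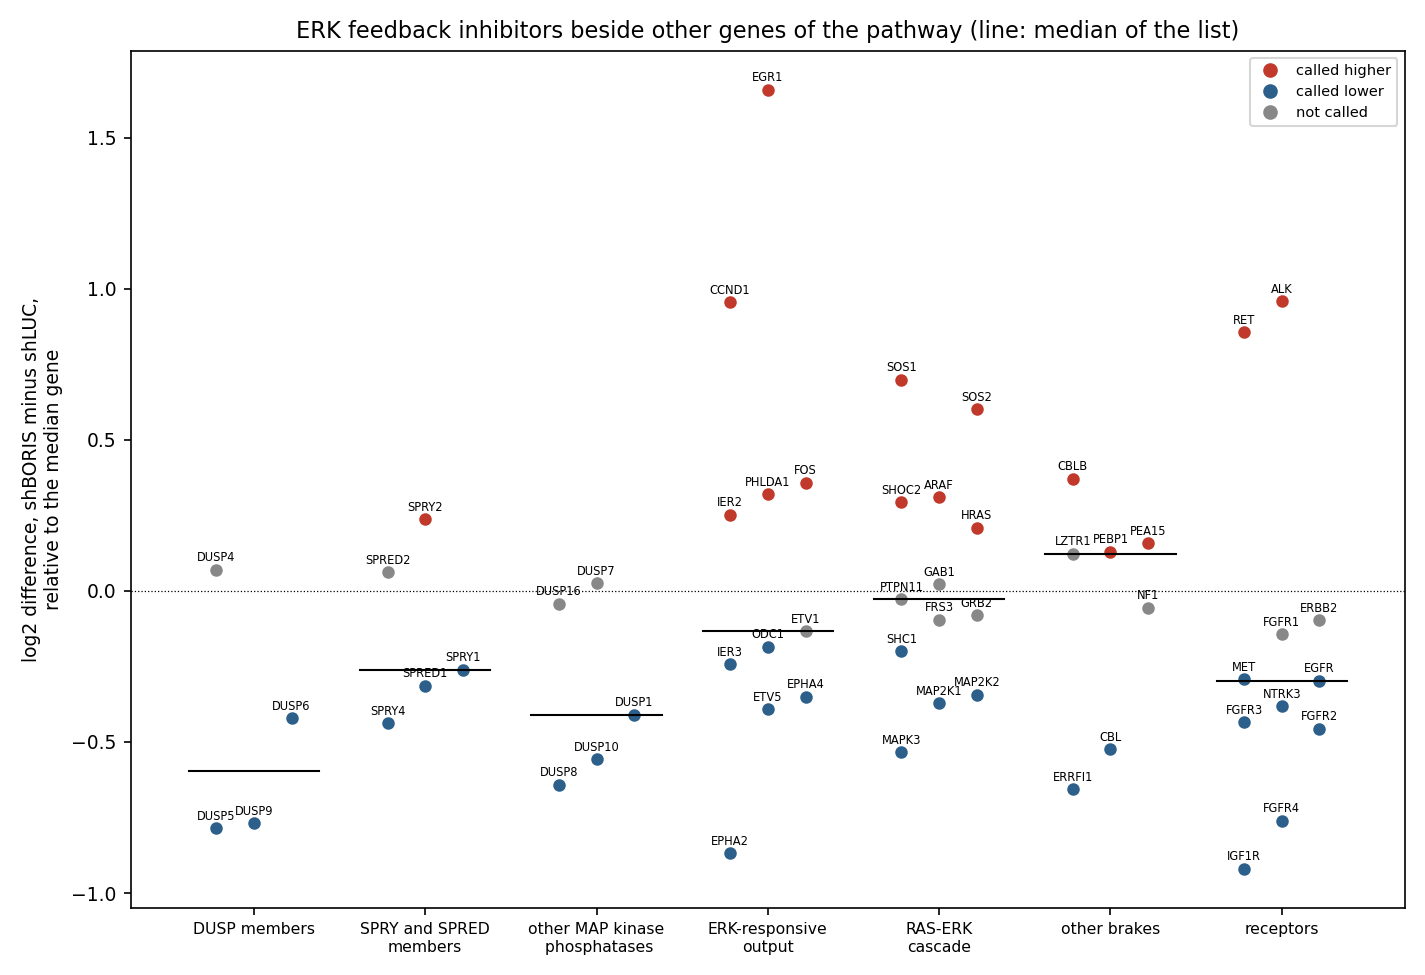
Log2 difference, shBORIS minus shLUC, centred on the median gene, for the 9 members tested and for genes of 5 other lists of the pathway; each point is a gene at its brightest probe set and black lines are list medians. EGR1, CCND1, ALK and RET stand above 0.8, while DUSP5, DUSP9, EPHA2, FGFR4 and IGF1R lie below -0.7.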

How the data were processed

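The deposited values are probe set intensities of Affymetrix PrimeView arrays on a linear scale, 1 column per array. Per the labels' protocols, ERCC RNA was added to total RNA, of which 100 ng was labelled. Per the submitters' processing notes, MAS5, R 3.1.3 and affy were used; their roles, and how arrays were scaled, are not given in the sources used.

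Probe sets were named from the platform annotation, with symbols updated through the Entrez identifier (GRCh38.p14 gene table; 45208 of 45278 single-symbol probe sets matched). The 202 control probe sets were left out. No probe set named a member together with other genes. Log2(intensity + 16) was modelled by limma 3.58.1 (R 4.3.3) with the hairpin as sole term, an intensity trend in the prior variance, 2 residual degrees of freedom and 2-sided p-values adjusted by Benjamini-Hochberg at 0.05. The gene fit used each gene's brightest probe set and left out genes under the 40th percentile of the mean, an intensity of 61.4, which left 10946. The probe set fit used all 49293. In the deposited fits the prior had infinite degrees of freedom, so each gene took the trend's variance, and its smallest p-values carry no exact meaning. P-values thus rest on a spread between duplicates that is pooled over genes along the trend, wholly so as deposited. In the centred fits a gene's own spread had 2 degrees of freedom beside a prior of 7.9 (genes) or 11.6 (probe sets). The script was tested on simulated data.

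All 10 members were to be named, with up to 4 genes of each pathway list by smallest p, plus CTCFL, ALK and EGR1. Genes without a single-symbol probe set were not analysed here. The members and lists were chosen with earlier results of these data known. Alternatives changed the pseudocount, filter, scaling, probe set summary, variance trend, replicate block and arrays used; centring on all probe sets was added after seeing the data.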

Additional observations from a re-analysis of the deposited data

How the results depend on the processing

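Each alternative changed 1 choice, except that the higher filter also dropped probe sets under the gene filter and moved the centring. Of the member genes' values, 190 kept direction and call, 11 lost and 4 gained a call, and 12 changed sign; for their probe sets these were 158, 17, 6 and 10, and for pathway genes 260, 6, 0 and 2. The centred falls of DUSP5, DUSP6, DUSP9 and SPRY4 passed in every alternative that tested them.

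Quantile normalization, which removes the shift between arrays, changed the deposited counts most. It left 1 member gene higher and 6 lower, and 0 probe sets higher (limma) and 11 lower; DUSP6 read -0.39, SPRED1 -0.31, SPRED2 -0.050, SPRY1 -0.33 and SPRY4 -0.27. Centred, it left 10 probe sets lower, SPRED2 at -0.019 and single probe sets of SPRED1, SPRED2 and SPRY4 at 0.016, 0.055 and 0.024. Centring on all probe sets, chosen after seeing the data, gave 3 member genes higher and 4 lower (1 and 6 otherwise), 2 probe sets higher and 10 lower, and over all genes 4996 higher and 1908 lower (3307 and 3161 otherwise), with DUSP16 at 0.10, SPRED1 probe sets at 0.0089 and 0.0097 and a SPRED2 probe set at 0.0068. The unfiltered fit gave 2 genes and 2 probe sets higher and DUSP16 at 0.073. With the filter at the 60th percentile, 7 of the 32 pathway genes left were higher, beside 2164 of 7298 over all genes. Of the 5 members left 1 was lower as deposited, and centred 0 were higher and 3 lower; 0 of 20 probe sets were higher (limma), with SPRED2 at -0.0094 and its probe set at -0.034. A pseudocount of 64 put DUSP4 at -0.010 and that probe set at -0.013, and the mean of probe sets put DUSP6 at -0.070 as deposited.

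With the replicate number as a block, 1 member gene was lower as deposited, and DUSP9 did not pass (limma adjusted p = 0.0633). Over all genes tested, the difference between replicates 1 and 2 of a group correlated at 0.098 with that of the other group. With 1 such difference per group, this cannot tell whether same-numbered arrays share more than a number. Leaving out 1 array gave 0 to 2 member genes lower as deposited, 0 to 1 higher centred, 1 to 5 probe sets lower as deposited and 0 to 1 higher centred; DUSP6 ran from -0.035 to 0.15 and SPRY4 from -0.037 to 0.12 as deposited, and a SPRED2 probe set from -0.038 to 0.11 centred. With 2 arrays a group, their number limits precision, and probe sets near the spike-in median carry little signal over background.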
